A study of Mus musculus with 4 samples.

Results

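The genes described here encode the proteins that package newly made RNA in the nucleus and remove its introns. They were chosen by name: every gene row of the array whose gene name starts with Hnrp, Sfrs, Snrp, Sf3a or Sf3b. This gave 57 genes of the 27962 gene names on the array, measured by 121 of its 41174 gene probes. They fall into 4 groups by role, with 45 hnRNP probes, 39 SR and SR-related probes, 23 snRNP probes and 14 SF3 probes. The array uses older names for many of them, so Hnrpa1 is now Hnrnpa1 and Sfrs1 is now Srsf1, and the current symbol is given where it differs by more than such a prefix.

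The RNA came from mouse mucosal mast cells differentiated in vitro, either stimulated with IL-18 or left unstimulated. IL-18, a cytokine related to IL-1, promotes inflammation. Each of 4 biological replicates was 1 two-colour array, on which RNA of the IL-18 stimulated cells (Cy5) was hybridised with RNA of their own unstimulated control (Cy3). The dyes were never exchanged, so the effect of IL-18 and a difference between the dyes cannot be told apart for a single probe, and the sources used here give neither dose, time, strain nor age.

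Pre-mRNA splicing is carried out by the spliceosome, which is built on each intron from small nuclear ribonucleoproteins (snRNPs) and many further proteins. The U1 snRNP recognises the 5′ splice site and the U2 snRNP, with its SF3A and SF3B complexes, the branch site. SR proteins mostly promote the use of nearby exons, whereas heterogeneous nuclear ribonucleoproteins (hnRNPs) coat the transcript and often act against them. Many genes of both families carry exons whose inclusion marks the mRNA for decay, so that 1 gene can give several transcripts.

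The labelled cell type was checked against its markers. All 9 mast cell markers on the array were well above background on every array in both channels. Their summed signal was 664826 to 702824 in IL-18 cells and 433230 to 529263 in unstimulated cells. The sum does not stand for each marker. By log2 ratio, Fcer1a (0.86), Mcpt1 (0.73), Cpa3 (0.51), Gata2 (0.35) and Mcpt2 (0.21) were called higher. Tpsb2 was called lower, at −0.74, and Kit, Ms4a2 and Hdc were not called. Of 37 markers of other cell types, 14 were well above background on every array in both channels and 8 on no array. The 14 include all 5 macrophage markers on the array, which summed to 2192 to 2552 units in IL-18 cells and 2138 to 2441 units in unstimulated cells. Of the 23 of these markers that were tested, 6 were called higher, among them Mcpt8 at 0.39, Xcr1 at 0.44 and Adgre1 at 0.27, and 1 was called lower, Csf1r at −0.20. Their part in the results was not tested, and sums of different lists are not ranked, since signals differ between probes. Nfkbia, an inhibitor gene of NF-kB, had a log2 ratio of 2.18 ± 0.15 (SD, n = 4). Of all gene spots, 57.9% to 62.7% were well above background in the IL-18 channel and 49.9% to 54.0% in the unstimulated channel, and no spot (0) was saturated. Pairs of arrays agreed in their ratios to a varying degree: over the 24104 tested probes, Pearson's r lay between 0.743, for replicates 1 and 4, and 0.905, for replicates 2 and 3.

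Splicing factor probes differed between IL-18 stimulated and unstimulated cells in both directions, mostly by small amounts. Of the 121 probes, 113 from 55 genes were well above background in one channel on at least 3 arrays and were tested. Their mean log2 signal had a median of 11.89, against 8.62 over all tested probes, and 99 of the 113 lay above the median brightness of all tested probes. Brightness depends on the probe as well as on the transcript, and is given because the ratios depended on it. In limma, with Benjamini-Hochberg adjustment over 24104 tested probes and a threshold of 0.05, 32 of them were higher in IL-18 cells and 31 were lower, 55.8% in all. Over all tested probes 48.3% were called, 24.3% as higher and 24% as lower, so the shares of 28.3% and 27.4% among the splicing factors stood near this background. In the brightest 25% of the tested probes, which hold 72 of them, 24 of the 72 were called higher and 17 lower. Of all 6026 probes there, 1600 (26.6%) were called higher and 1708 (28.3%) lower. The median log2 ratio of the 113 probes was 0.0008, against 0.015 over all tested probes. Its value on single arrays ranged from −0.04 (replicate 1) to 0.06 (replicate 4). Among the called probes the size of the log2 ratio ran from 0.13 to 1.76, 10 reached 0.50, and 3 reached 1, a 2-fold change, all of them falls. Counting the brightest tested probe of each gene, 20 of 55 genes were higher and 14 lower. These are 36.4% and 25.5%, or 61.8% in both directions, against 26.3%, 20.7% and 47.1% of all 16377 genes.

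**Figure D1:**
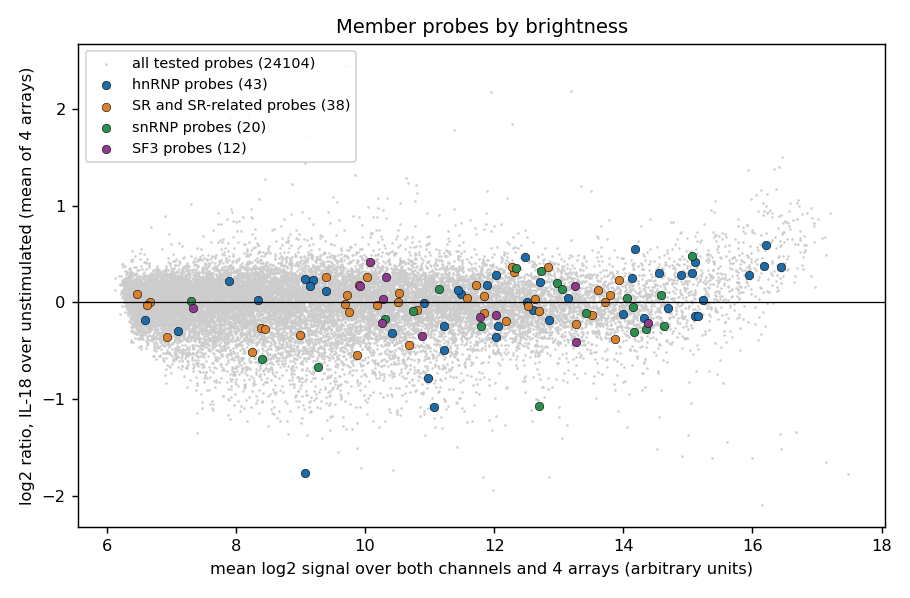
The log2 ratio of IL-18 over unstimulated cells (mean of 4 arrays, vertical) is plotted against the mean log2 signal (horizontal) for 24104 tested probes in grey and 113 splicing factor probes in colour by role. The coloured points lie mostly in the right-hand part and on both sides of 0, with Hnrpa0 at −1.08 and −1.76 and Snrpb at −1.07 the lowest of them.

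The sign of small ratios rested on the normalization. On these arrays the ratio drifted with brightness, and loess removed that drift except at the bright end. With each array centred on its median instead, the median of all tested probes became 0.40 and that of the splicing factors 0.76. All 32 rises kept their call, and of the 31 falls 7 did: both probes of Hnrpa0, 2 probes of Snrpa, and 1 each of Snrpb, Hnrpr and Sfrs2ip. Of the falls, 18 stayed below the shifted median of all probes. "Rose" and "fell" below are therefore relative to the loess curve. That curve stood near the median of probes of the same brightness, but not at the bright end. Of all 63 called probes, 21 kept direction and call under every alternative that was tried, 15 rises and 6 falls. Median centring moved the ratios up, with 98 splicing factor probes called higher and 7 lower, so it could hardly cost a rise its call. Keeping the call under every alternative therefore says less for a rise than for a fall. The loess values also leaned upward at the bright end. Among the 473 tested probes with a mean log2 signal of at least 15, a limit chosen after the data were seen, 307 were called higher and 50 lower, with a median log2 ratio of 0.28. The scanner software's own log ratio gave these probes a median of 0.06. The 10 splicing factor probes in that range, which are all hnRNP or snRNP probes, had medians of 0.34 with loess and 0.06 with the software.

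Among the hnRNPs, RNA-binding proteins that coat nuclear transcripts, rises were more common than falls. Of 43 tested probes 17 rose and 11 fell, 39.5% and 25.6%, against 24.3% and 24% of all probes. By the brightest probe, 10 of 19 genes rose and 4 fell, which is 52.6% and 21.1%, against the 26.3% and 20.7% of all genes given above. With the software's log ratio 6 of the 19 rose and 3 fell, and leaving out 1 array gave 9 to 10 rises and 3 to 6 falls. The 10 that rose were Hnrpa1, Hnrpa2b1, Hnrpa3, Hnrpab, Hnrpdl, Hnrpf, Hnrph1, Hnrph3, Hnrpk and Hnrpul1. Of these, Hnrpa3, Hnrpab, Hnrpf and Hnrpk have their brightest probe at a mean log2 signal of at least 15, where loess leaned upward. The 4 that fell were Hnrpa0, Hnrpl, Hnrpm and Hnrpr.

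Hnrpa0, a member of the A/B group that binds AU-rich elements, had the largest fall of all splicing factors. Its brighter probe had log2 ratios of −1.22, −1.10, −0.75 and −1.25 on replicates 1 to 4. Signals were 1255, 1413, 1621 and 1656 units in IL-18 cells, against 2930, 3035, 2732 and 3946 units in unstimulated cells. The 2 groups of signals did not overlap, and the probe was 2.12-fold lower in IL-18 cells (limma, adjusted p = 0.000221). The dimmer probe, on the same accession, had signals of 267, 275, 308 and 331 units in IL-18 cells and 996, 839, 822 and 1441 units in unstimulated cells. It was lower on every array, at −1.90, −1.61, −1.41 and −2.12, or 3.39-fold (limma, adjusted p = 0.000125). Both probes kept their call under every alternative, with median centring at −0.39 and −1.25.

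The promoter of Hnrpa0 is shown because it belongs to the gene with the largest fall, and that of Snrpg because it had the largest rise of a snRNP gene. Those of Sf3a3, of the SF3A complex, and Sf3b2, of the SF3B complex, are shown because both genes fell. RefSeq's table for GRCm38.p6 held promoters for 51 of the 57 genes, matched by symbol, 71 in all. The 250 bases before the transcription start are given 5′ to 3′ on the gene's strand, and capitals mark matches to the searched motifs on either strand. Hnrnpa0 lies on the minus strand at chr13:58128557-58128806, Snrpg on the plus strand at chr6:86371290-86371539, Sf3a3 on the plus strand at chr4:124714611-124714860 and Sf3b2 on the minus strand at chr19:5295458-5295707.
Hnrnpa0: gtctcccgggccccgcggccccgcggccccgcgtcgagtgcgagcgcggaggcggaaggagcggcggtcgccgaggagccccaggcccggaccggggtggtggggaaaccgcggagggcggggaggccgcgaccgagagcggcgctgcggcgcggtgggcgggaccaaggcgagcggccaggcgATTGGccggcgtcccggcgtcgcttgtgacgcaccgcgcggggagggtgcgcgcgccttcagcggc
Snrpg: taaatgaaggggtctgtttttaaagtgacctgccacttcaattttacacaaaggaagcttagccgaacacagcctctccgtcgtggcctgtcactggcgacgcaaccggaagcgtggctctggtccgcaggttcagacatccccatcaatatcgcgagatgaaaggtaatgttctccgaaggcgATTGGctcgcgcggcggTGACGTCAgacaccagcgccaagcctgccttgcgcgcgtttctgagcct
Sf3a3: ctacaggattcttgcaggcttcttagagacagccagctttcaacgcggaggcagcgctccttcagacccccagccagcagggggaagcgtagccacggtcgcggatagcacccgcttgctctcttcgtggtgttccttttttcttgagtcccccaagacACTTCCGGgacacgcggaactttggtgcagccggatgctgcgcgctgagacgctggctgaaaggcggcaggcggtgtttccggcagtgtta
Sf3b2: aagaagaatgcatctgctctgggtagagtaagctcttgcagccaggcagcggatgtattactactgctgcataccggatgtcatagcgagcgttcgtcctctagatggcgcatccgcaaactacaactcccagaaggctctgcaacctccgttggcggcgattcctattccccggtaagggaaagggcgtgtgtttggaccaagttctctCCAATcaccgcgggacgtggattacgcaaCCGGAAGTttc
The capitals in Hnrnpa0 are a CCAAT box (CCAAT) read from the other strand. Snrpg has a CCAAT box and a cyclic AMP response element (TGACGTCA). Sf3a3 has an ETS motif (CCGGAAGT) and Sf3b2 has a CCAAT box and an ETS motif. Matches of different motifs did not overlap in these 4 stretches.

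Searched over 300 bases around each start, on both strands, the ETS motif stood in 18.3% of the 71 promoters of splicing factor genes and in 3.89% of all 32851 promoters. The genes with it were Hnrnpd, Hnrnpf, Sf3a1, Sf3a3, Sf3b2, Sfswap (Sfrs8), Snrpe, Srsf4, Srsf5 and Srsf11. They include genes that rose, such as Snrpe, and genes that fell, such as Sf3b2. The CCAAT box was found in 38.0% of them against 37.4% of all, and the NF-kB motif in 1.41%, against 2.92% of all. The remaining motifs were the E-box CACGTG (11.3%, against 7.15% of all), the NRF1 motif (2.82%, against 0.971%), the TATA box TATAAA (9.86%, against 13.6%), the cyclic AMP response element (2.82%, against 1.79%) and the YY1 motif AAGATGGCG (1.41%, against 1.40%). The median GC content was 61%, against 52.7% in all promoters, and the 71 promoters share genes, so these shares are a description.

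Hnrpa3, a close relative of hnRNP A1, showed opposite changes at different probes. Its brightest probe had 94336, 95225, 96305 and 86505 units in IL-18 cells, against 66608, 62816, 56136 and 62480 units in unstimulated cells. It was 1.50-fold higher in IL-18 cells, with log2 ratios of 0.50, 0.60, 0.78 and 0.47 (limma, adjusted p = 0.000475). Its dimmest probe, which carries the same RefSeq accession, had 1507, 1518, 1644 and 1467 units in IL-18 cells and 3189, 2740, 2533 and 2163 units in unstimulated cells. This probe was 1.72-fold lower, with ratios of −1.08, −0.85, −0.62 and −0.56 (limma, adjusted p = 0.000642). In neither probe did the groups overlap. The other two probes of Hnrpa3 read 0.41 ± 0.14, which passed, and 0.13 ± 0.11 (SD, n = 4), which did not. The brightest probe read 0.25 with the scanner software's log ratio and still passed, and the call of the dimmest, at −0.09, was lost with median centring.

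Hnrph1, whose protein binds runs of G in RNA, rose on every array, at 0.46, 0.49, 0.52 and 0.72. Its single probe had 22825, 22775, 22583 and 22386 units in IL-18 cells and 16643, 16210, 15790 and 13544 units in unstimulated cells. The groups did not overlap, and the probe was 1.46-fold higher (limma, adjusted p = 0.000471). Of its relatives, Hnrph3 rose by 0.24 ± 0.15 (SD, n = 4), and Hnrph2 read −0.16 ± 0.20 over 3 arrays and did not pass. Hnrpf, the fourth member of this group, rose by 0.28 ± 0.08 at its brighter probe and fell by 0.36 (SD 0.32) at the other. The brighter probe of Hnrpf read −0.05 with the software's log ratio. The dimmer one lost its call without replicate 2 (−0.35), 3 (−0.23) or 4 (−0.36).

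Hnrpa1 and Hnrpa2b1 encode the most abundant A/B proteins, which often repress exon inclusion. Hnrpa1 rose by 0.28 ± 0.13 at its brightest probe and by 0.28 ± 0.07 at the next (SD, n = 4). Its other two probes read 0.08 and 0.02 and did not pass. With the software's log ratio the brightest probe read 0.13 and lost its call, while the next read 0.30. Both probes of Hnrpa2b1 rose, at 0.15, 0.22, 0.39 and 0.45 and at 0.18, 0.24, 0.37 and 0.22, and kept their call under every alternative. In each of these probes the 4 IL-18 signals lay above the 4 unstimulated signals. Hnrpab, of the same family, rose by 0.37 ± 0.23 and 0.22 ± 0.05 at 2 of its 4 probes. The brighter of these read 0.07 with the software's log ratio.

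Hnrpul1, an SAF-A-like protein, and Hnrpk, which binds runs of C, also split between probes. Hnrpul1 rose by 0.47 ± 0.18 at its brightest probe, read 0.11 ± 0.15 at the next and fell by 0.30 (SD 0.14) at the dimmest (SD, n = 4). The rise was present on every array, at 0.30, 0.40, 0.47 and 0.71, and kept its call under every alternative. Hnrpk rose by 0.37 ± 0.08 and 0.30 ± 0.11 at its 2 brighter probes and fell by 0.31 (SD 0.15) at the dimmest. With the software's log ratio its rises read 0.05 and 0.11 and did not pass. Hnrpdl, a relative of the AU-rich element binding protein AUF1, rose by 0.21 ± 0.13 and 0.23 ± 0.08 at 2 probes and fell by 0.24 (SD 0.05) at the probe of intermediate brightness. The first of these rises lost its call without replicate 2 (0.23) or 3 (0.20). Hnrpd, which encodes AUF1 itself, read −0.12 at its brighter probe, which did not pass, and rose by 0.17 ± 0.07 at the other. That rise did not pass without replicate 2 (0.19) or 3 (0.18).

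Hnrpl, which binds CA repeats, fell by 0.49 (SD 0.19, n = 4; limma, adjusted p = 0.00192). On the single arrays it read −0.61, −0.57, −0.59 and −0.21. Replicate 4 stood apart from the other arrays, and with median centring the probe read 0.21. Its relative Hnrpll read 0.04, 0.01 and 0.17 at its 3 probes, none (0) of which passed. Both probes of Hnrpr fell, by 0.19 and 0.18, and Hnrpm fell by 0.15 over 3 arrays. The dimmer Hnrpr probe had low signals, at 84, 92, 96 and 92 units in IL-18 cells and 98, 106, 105 and 104 units in unstimulated cells. The fall of Hnrpm did not pass without replicate 1 (−0.15), 2 (−0.14) or 3 (−0.15), and that of the dimmer Hnrpr probe did not pass without replicate 2 (−0.18). Hnrpc and Hnrpu, which encode abundant nuclear RNA-binding proteins, did not pass. The brighter probe of Hnrpc read 0.12 on replicate 1 and −0.29, −0.47 and −0.33 on the others. The brighter probe of Hnrpu read −0.13, −0.11, −0.07 and 0.06.

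**Figure D2:**
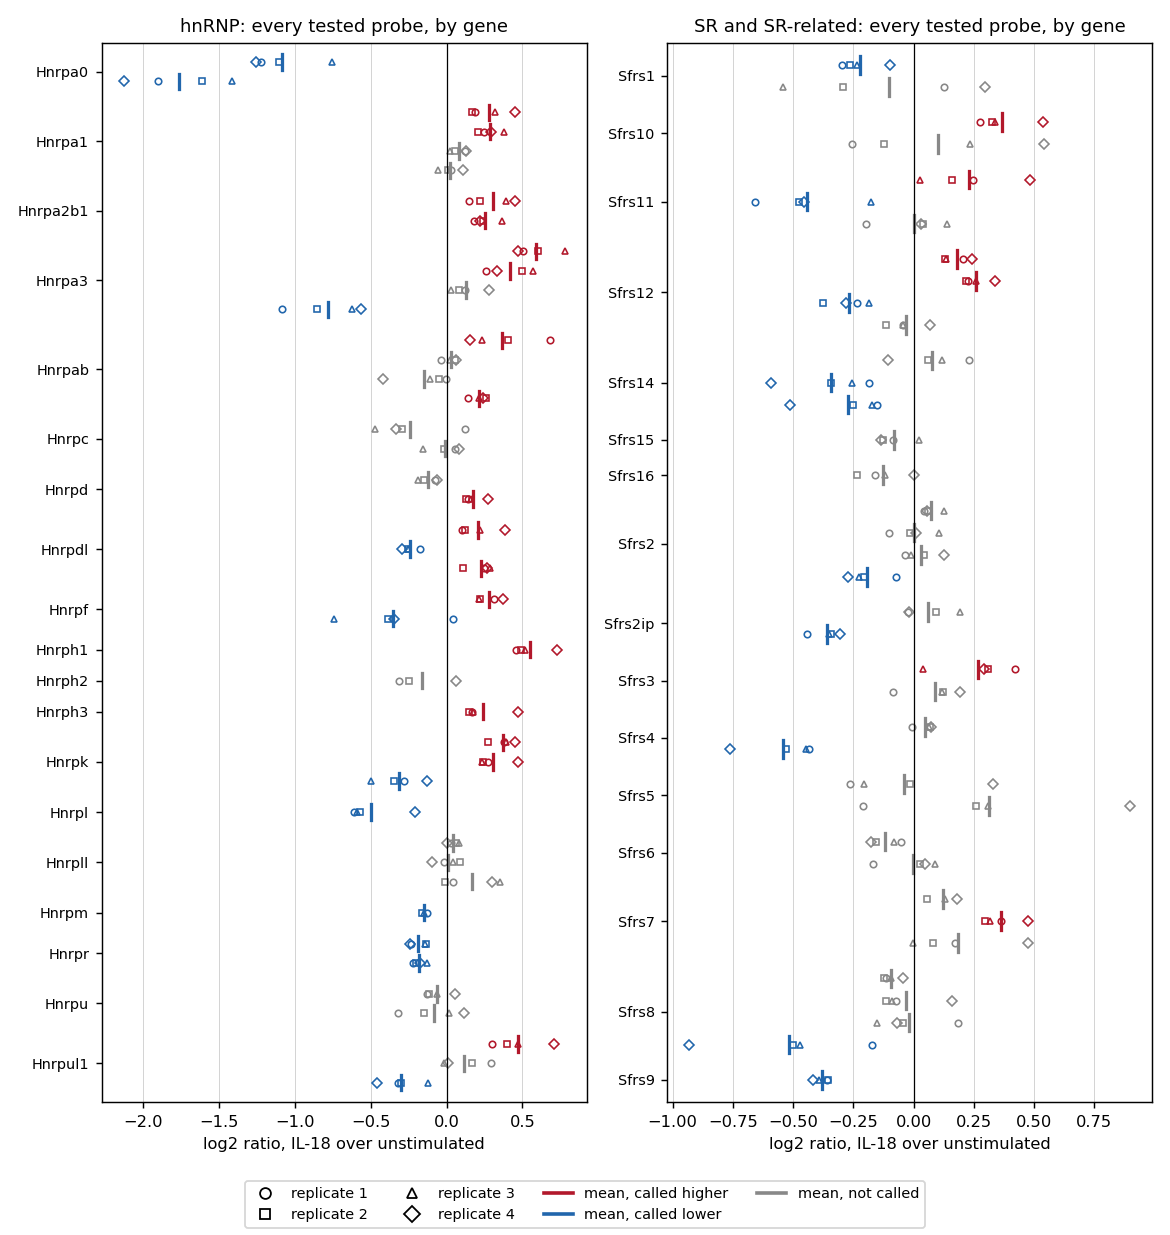
Each row is 1 tested probe, grouped by gene with the brightest probe on top. Symbols give the log2 ratio of IL-18 over unstimulated cells on each array, the bar gives their mean, and colour gives the call. In Hnrpa3, Hnrpk, Hnrpf, Hnrpul1, Hnrpdl, Sfrs11 and Sfrs12 red and blue rows stand under the same gene.

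**Figure D3:**
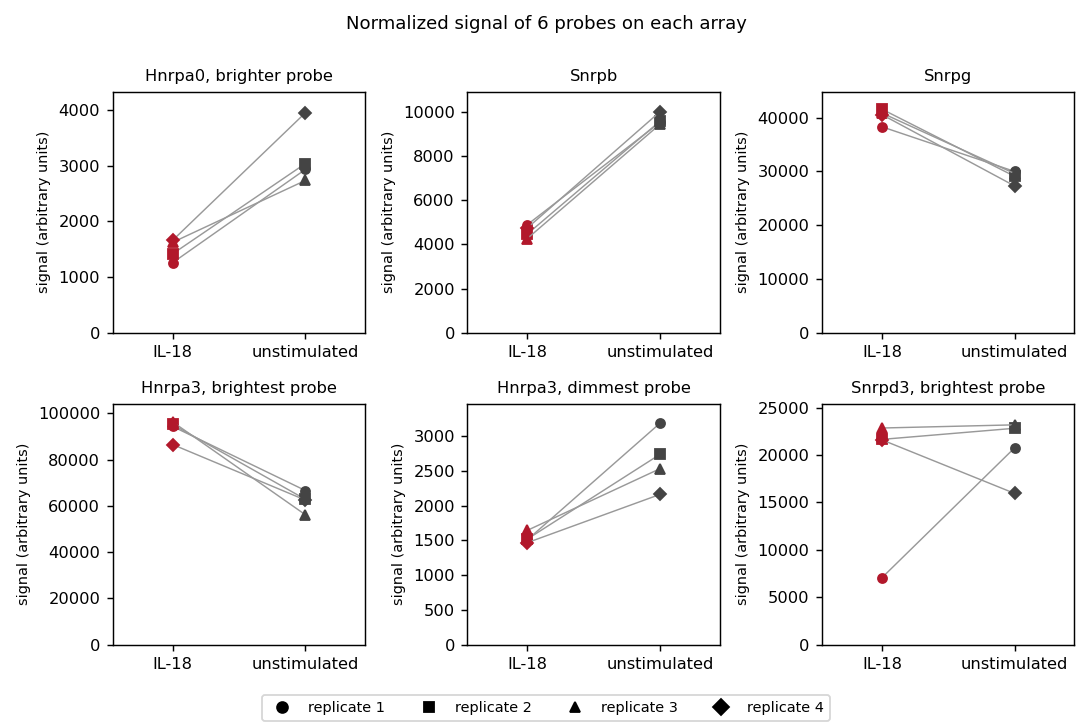
Normalized signal in IL-18 and in unstimulated cells on each array for 6 probes, in arbitrary units, with lines joining the 2 channels of an array. The 4 lines run the same way for Hnrpa0, Snrpb, Snrpg and both Hnrpa3 probes, whereas in Snrpd3 only the IL-18 signal of replicate 1, at 7045 units, is far from the rest.

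SR proteins carry arginine-serine repeats and bind exons. Of the 38 tested probes of SR and SR-related genes, 6 rose and 10 fell, or 15.8% and 26.3%, against 24.3% and 24% of all probes. By the brightest probe 4 of 16 genes rose (25%, against 26.3% of all genes), 2 fell (12.5%, against 20.7%) and 10 did not pass. Without 1 array this count ran from 2 to 5 rises and 2 to 5 falls. The classical SR genes are given first.

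Sfrs9, the gene of an SR protein also called SRp30c, fell by about the same amount on all arrays, at −0.36, −0.35, −0.39 and −0.42. Its signals were 12816, 13838, 12754 and 12993 units in IL-18 cells, against 16447, 17676, 16742 and 17358 units in unstimulated cells. The groups did not overlap, and Sfrs9 was 1.30-fold lower (limma, adjusted p = 0.0005). With median centring it read 0.60. Sfrs1, which encodes the splicing factor SF2/ASF, fell by 0.22 (SD 0.09) at its brighter probe. With the software's log ratio it read −0.16 and did not pass. Its dimmer probe read −0.10 ± 0.38 (SD, n = 4), with 2 arrays on either side of 0.

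Sfrs7 rose by 0.36 ± 0.08 at one of its 3 probes, at 0.36, 0.30, 0.32 and 0.48 (limma, adjusted p = 0.00105). The other two read 0.12 ± 0.06 (SD, n = 3), the brightest, and 0.18 ± 0.21 (SD, n = 4), and neither passed. Sfrs3, whose product SRp20 also takes part in mRNA export, rose by 0.27 ± 0.16 (SD, n = 4) at its brighter probe. Its values were 0.42, 0.31, 0.04 and 0.29, and the call was lost without replicate 2 (0.25). Sfrs2 (SC35), Sfrs5 and Sfrs6 did not pass at their brightest probes, with 0.07 ± 0.04, −0.04 ± 0.27 and −0.12 ± 0.06 (SD, n = 4). Of the 4 Sfrs2 probes, the dimmest fell by 0.19 (SD 0.08), but not without replicate 2 (−0.19) or 3 (−0.18). Sfrs5 spread widely, with −0.21, 0.26, 0.31 and 0.90 at its other probe. Sfrs4 read 0.05 ± 0.04 at its brighter probe and fell by 0.54 (SD 0.15) at the other, on the same accession. That fall was seen on every array, at −0.44, −0.53, −0.45 and −0.76 (limma, adjusted p = 0.000731), and read 0.05 with median centring.

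The SR-related genes encode proteins with arginine-serine repeats outside the classical family. Sfrs10 (Tra2b), which binds GAA-rich exonic enhancers, rose by 0.37 ± 0.12 at its brighter probe, at 0.27, 0.32, 0.34 and 0.54 (SD, n = 4). Its other probe read −0.26, −0.12, 0.23 and 0.54 and did not pass. The rise of the brighter probe kept its call under every alternative. Sfrs11 rose by 0.23 ± 0.19 at its brightest probe and fell by 0.44 (SD 0.20) at the next, both on the same accession (SD, n = 4). The rise did not pass without replicate 1 (0.22) or 2 (0.25). Sfrs12 (Srek1) rose by 0.18 ± 0.05 and 0.26 ± 0.05 at its 2 brightest probes and fell by 0.27 (SD 0.08) at a dimmer one. These 3 probes carry 1 accession as well, and the fourth, on another, read −0.03. Sfrs8 (Sfswap), a splicing regulator with SWAP domains, read −0.09, −0.03 and −0.02 at 3 probes and fell by 0.52 (SD 0.31) at the dimmest. Sfrs2ip (Scaf11) read 0.06 at its brighter probe and fell by 0.36 (SD 0.06) at its dim one. The fall was seen at −0.44, −0.34, −0.35 and −0.30 and kept its call under every alternative. Its signals were low, at 112, 102, 106 and 111 units in IL-18 cells and 152, 129, 134 and 137 units in unstimulated cells. Sfrs14 (Sugp2) read 0.08 at its brightest probe, which did not pass, and fell by 0.34 and 0.27 at the others. Sfrs15 (Scaf4) and Sfrs16 (Clasrp) read −0.08 and −0.13 and did not pass.

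The snRNPs share a ring of 7 Sm proteins and differ in the proteins specific to each particle. Of 20 tested snRNP probes 6 rose and 5 fell, 30% and 25%, against 24.3% and 24% of all probes. By the brightest probe 5 of 12 genes rose and 3 fell, 41.7% and 25%, against 26.3% and 20.7% of all genes. Without 1 array 3 to 5 rose and 3 to 4 fell.

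The genes of the Sm ring did not move together. Snrpb, which encodes the alternative proteins SmB and SmB′, fell to 4896, 4470, 4265 and 4744 units in IL-18 cells, against 9536, 9593, 9453 and 10022 units in unstimulated cells. Its log2 ratios were −0.96, −1.10, −1.15 and −1.08, so the fall was 2.10-fold with little spread between arrays (limma, adjusted p = 5.29e-05). Among the 3 largest falls it had the smallest spread, with an SD of 0.08 against 0.23 and 0.31 in Hnrpa0. The call held under every alternative, with −0.22 under median centring, but Snrpb is measured by 1 probe only. Snrpg (SmG) rose to 38321, 41602, 40882 and 40586 units in IL-18 cells, against 30006, 29093, 29613 and 27300 units in unstimulated cells. It was higher on every array, at 0.35, 0.52, 0.47 and 0.57, or 1.39-fold (limma, adjusted p = 0.000492), and kept its call throughout.

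Snrpe (SmE) rose by 0.36 ± 0.17 (SD, n = 4), with 0.11 on replicate 1 and 0.43, 0.47 and 0.42 on the others. Snrpd1 (SmD1) rose by 0.20 ± 0.08 and Snrpd2 (SmD2) by 0.13 ± 0.05. The calls of these small rises, though little of their size, were lost without single arrays: that of Snrpd1 did not pass without replicate 2 (0.18) or 3 (0.18), and that of Snrpd2 did not without replicate 1 (0.15), 2 (0.13) or 3 (0.13). Snrpf (SmF) fell by 0.28 (SD 0.14) at its brighter probe and read 0.04 ± 0.13 at the other, which carries the same accession. The fall read 0.76 with median centring.

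Snrpd3 (SmD3), described after its values were seen, did not pass at any of its 3 probes, and replicate 1 stood apart at the 2 brighter ones. At the brightest, signals were 7045, 21639, 22839 and 21590 units in IL-18 cells, against 20758, 22813, 23173 and 15937 units in unstimulated cells. The log2 ratios were −1.56, −0.08, −0.02 and 0.44, with a mean of −0.30 ± 0.87 (SD, n = 4). The next probe, on the same accession, had 1161, 4562, 4216 and 5086 units in IL-18 cells and 3054, 4577, 4209 and 3868 units in unstimulated cells. Both probes thus had a low IL-18 signal on the same array. The dimmest probe, on another accession, read 0.02 ± 0.04 (SD, n = 4).

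Probes for genes of proteins specific to the U1 snRNP were lower or did not pass. Snrp70, which encodes its 70K protein, fell by 0.25 (SD 0.11) at its brighter probe, at −0.19, −0.33, −0.13 and −0.34. With median centring that probe read 0.82. Its dimmer probe read −0.17 ± 0.17 (SD, n = 4) and did not pass. Snrp1c, which encodes the C protein of this particle, read −0.11 ± 0.15 and did not pass. Snrpa, which encodes its A protein, read −0.05 and −0.09 at its 2 brighter probes, which did not pass. It fell by 0.67 and 0.58 at its 2 dimmer ones. The first of these had 468, 484, 494 and 517 units in IL-18 cells and 749, 791, 763 and 824 units in unstimulated cells. It was lower on every array, at −0.68, −0.71, −0.63 and −0.67 (limma, adjusted p = 0.000114). Both falls kept their call under every alternative, and 3 of the 4 probes carry 1 RefSeq accession. Of the genes of U2 snRNP proteins, Snrpa1 rose by 0.33 ± 0.05, at 0.37, 0.28, 0.29 and 0.37. Snrpb2 read 0.07 at its brighter probe, which did not pass, and rose by 0.14 ± 0.06 at the other. That small rise did not pass without replicate 2 (0.13) or 3 (0.13).

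SF3A and SF3B are the complexes that join the U2 snRNP at the branch site. Of 12 tested probes 3 rose and 5 fell, which is 25% and 41.7%, against 24.3% and 24% of all probes. By the brightest probe 5 of 8 genes fell and 1 rose, 62.5% and 12.5%, against 20.7% and 26.3% of all genes. That count depended on the arrays: 3 fell without replicate 1, 2 without replicate 2, 5 without replicate 3 and 6 without replicate 4. With the software's log ratio 3 fell, and with median centring all 8 were called higher, at a median of 0.55 against 0.40 for all tested probes.

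Sf3b2 fell by 0.41 (SD 0.23, n = 4; limma, adjusted p = 0.00723), and its promoter is among those shown above. On the single arrays it read −0.28, −0.30, −0.29 and −0.76, with replicate 4 apart from the rest. Sf3a3, the other gene with an ETS motif there, fell at −0.16, −0.21, −0.21 and −0.28. Sf3b1, which contacts the branch site and is a frequent target of mutation in myeloid neoplasms, fell by 0.21 (SD 0.13) at its brighter probe and read 0.17 ± 0.19 at the other, which did not pass. The fall did not pass without replicate 1 (−0.16) or 2 (−0.21). Sf3a1 fell by 0.16 (SD 0.08) at its brighter probe, but not without replicate 1 (−0.14) or 2 (−0.16), and read 0.03 at the other.

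Sf3b3 had probes in both directions, on different accessions. Its brightest probe fell by 0.35 (SD 0.28), at −0.24, −0.27, −0.14 and −0.76, and did not pass without replicate 2 (−0.38). The other two rose, by 0.26 ± 0.14 and 0.41 ± 0.15 (SD, n = 4), and the first of these did not pass without replicate 3 (0.24). The larger rise was seen at 0.33, 0.27, 0.45 and 0.61 and kept its call under every alternative. Sf3b5 rose by 0.16 ± 0.03, but not without replicate 2 (0.16) or 3 (0.16). Sf3a2 and Sf3b4 read −0.06 and −0.13 and did not pass.

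**Figure D4:**
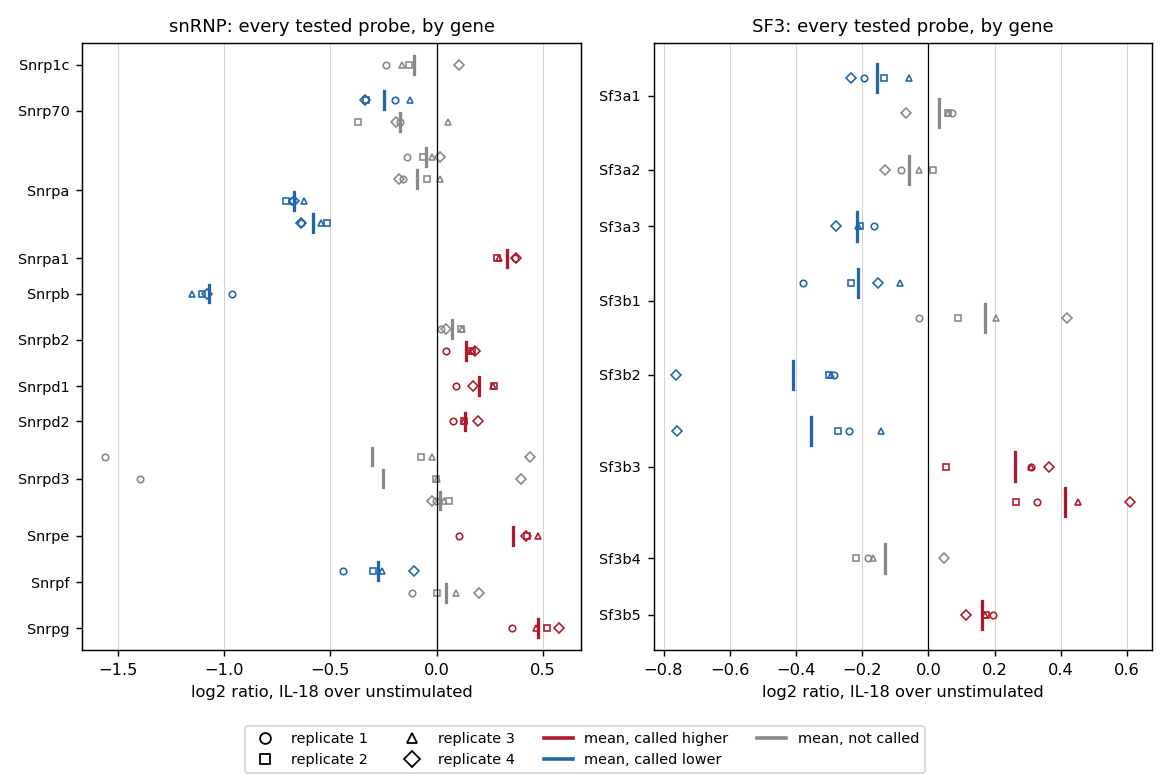
Each row is 1 tested probe of the snRNP (left) and SF3 (right) genes, grouped by gene with the brightest probe on top. Symbols give the log2 ratio of IL-18 over unstimulated cells on each array, the bar their mean and the colour the call. Snrpb lies near −1.07 with little spread, Snrpg near 0.48, and the 2 brighter Snrpd3 probes have replicate 1 at −1.56 and −1.40.

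Probes of the same gene often differed in these families. Several tested probes were present for 35 genes. All probes of 1 gene (Hnrpa2b1) rose, and all probes of 2 genes (Hnrpa0 and Hnrpr) fell. Of all 5510 genes with several tested probes, all probes rose in 412 and fell in 606. In 8 genes (Hnrpa3, Hnrpdl, Hnrpf, Hnrpk, Hnrpul1, Sf3b3, Sfrs11 and Sfrs12) probes passed in both directions. These are 22.9%, against 594 of all 5510 genes with several tested probes, or 10.8%. Without replicate 2 the 8 genes became 5, or 14.3% against 4.39% of all, and with the software's log ratio also 5, against 9.53% of all. Within slide 2 alone, replicates 3 and 4, there were 2, or 5.71% against 2.30% of all. With median centring none (0) of the 8 remained, and 3 other genes (Hnrpr, Sfrs2ip and Snrpa) had probes in both directions, 8.57% against 11.7% of all. In 7 genes some probes rose and none (0) fell, in 11 some fell and none (0) rose, and in 6 none (0) passed. These last counts were not made over all genes. Within a gene the highest and lowest probe differed by a median of 0.32 on the log2 scale. Which transcripts each probe detects was not tested, since probe sequences were not used here.

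Probes that were not tested were not well above background. There were 8, of Hnrpul1, Hnrpul2, Sf3b4, Sf3b5, Sfrs15, Snrpd1 and Snrpn, with 2 for Snrpn. Their signals ran from 62.7 to 82.0 units in IL-18 cells and from 59.6 to 82.0 units in unstimulated cells. Snrpn, the imprinted relative of Snrpb that is known from neurons, and Hnrpul2 had no other probe. The second Snrpd1 probe was well above background on 1 array, in the IL-18 channel alone.

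**Figure D5:**
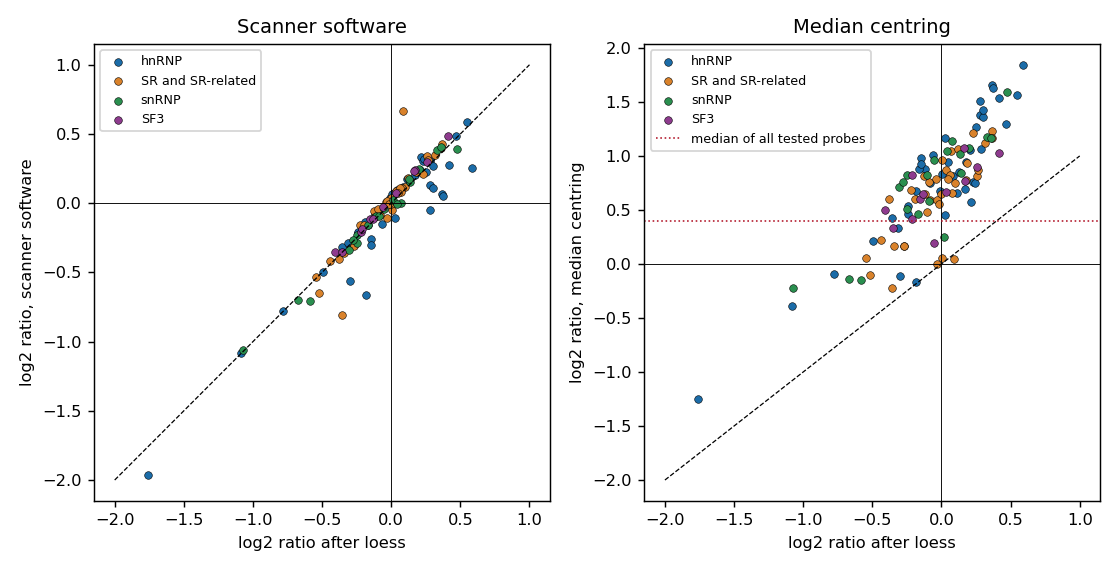
The log2 ratio of each of the 113 probes after loess (horizontal) is plotted against the scanner software's log ratio (left) and the ratio after median centring (right), with the dashed line marking equal values. On the left most points follow the line and several bright hnRNP probes fall below it. On the right all points move up, and the dotted line marks the median of all tested probes at 0.40.

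Other genes of RNA processing, from lists fixed with earlier results of these data known, were counted at their brightest tested probe for comparison. Of 69 other spliceosome genes 11 rose and 26 fell, 15.9% and 37.7%, with a median of −0.06, against 26.3%, 20.7% and 0.03 over all genes. Without replicate 2 the list had 5 rises and 17 falls, without replicate 3 it had 7 and 22, and with median centring 63 genes were called higher and 1 lower. Lsm3, of the Sm-like ring, rose by 0.44, Ppih by 0.28 and Prpf4 by 0.27, while Prpf19, Eftud2 and U2af2 fell by 0.90, 0.72 and 0.74. Prpf19 read −1.63 on replicate 1 and −0.75, −0.77 and −0.43 on the others. With median centring Prpf19 read −0.18 and Eftud2 0.0004, and neither passed, while U2af2 read −0.31 and passed. The other probe of Prpf4 read −0.43 and that of Ppih 0.01. Of 54 further splicing regulators 12 rose and 18 fell, 22.2% and 33.3%, with a median of −0.04. Leaving out 1 array gave 8 to 12 rises and 14 to 20 falls, and median centring gave 48 and 2. Son rose by 0.55, Ptbp2, a neuronal repressor of exons, by 0.39 and Celf2 by 0.37. Fubp1 fell by 0.92 and Clk2, a kinase of SR proteins, by 0.88. Other probes of Son ranged down to −0.46, those of Celf2 down to −0.07, and those of Fubp1 read −0.20 and 0.03.

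Of 17 genes of snRNP assembly 2 rose (Snupn by 0.18, Gemin5 by 0.15) and 7 fell, 11.8% and 41.2%, against the 26.3% and 20.7% of all genes. Those that fell include Usb1 by 0.70, Gemin4 by 0.50 and Prmt5, which methylates Sm proteins, by 0.32. The median was −0.04. There was 1 rise without replicate 2, and there were 4 without replicate 4 or with the software's log ratio, while median centring gave 15 rises and 1 fall. Of 22 genes of 3′ end processing 5 rose and 11 fell, 22.7% and 50%, against the same shares of all genes, with a median of −0.11. Without replicate 2 there were 4 rises and 7 falls, without replicate 3 there were 3 and 8, with the software's log ratio 5 and 6, and with median centring 21 and 0. Cpsf1, Sympk and Cpsf2 fell by 0.58, 0.51 and 0.42, and Pcf11, Wdr33 and Cpsf6 rose by 0.42, 0.30 and 0.20. Other probes of Cpsf2 ranged up to 0.35 and those of Wdr33 down to −0.63. Of 25 genes of mRNA export, the exon junction and decay 2 rose (Thoc7 and Magohb, each by 0.27) and 11 fell, 8% and 44%, with a median of −0.15. Thoc5 fell by 1.10 and Upf1, the helicase of nonsense-mediated decay, by 0.39. Without replicate 4 this list had 4 rises and 13 falls, with the software's log ratio 2 and 8, and with median centring 21 and 1.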

How the data were processed

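Per the labels, 4 two-colour Agilent arrays each held IL-18 stimulated RNA (Cy5) and its own unstimulated control (Cy3). The sources used here do not say whether the replicates came from separate cultures or animals beyond calling them biological. The deposited intensity values are spot means and local background medians from Agilent Feature Extraction 9.1, not yet corrected, per the file headers and the submitters' processing notes. The deposited files also hold the software's log10 ratio, which the authors' software made after background and dye correction. The series-wide deposited table gives the same log10 ratios within 0.00496. Both served as alternatives. The software's flags (well above background, outlier, saturated) were taken as other values as deposited.

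Background was corrected with limma's normexp (offset 50). On replicate 1 the signal of 7 spots in Cy5 and 5 in Cy3, all flagged by the software, lay far below the local background. With all spots in the fit, the fitted constants of this array were −277 in Cy5 and −381 in Cy3. The normexp parameters were therefore fitted without spots flagged for their local background (141 to 252 of 43379 per array) and applied to all spots, a change made after the data were seen. It gave −4.82 and 29.6 and raised the median size of replicate 1's log2 ratios to 0.104, against 0.016 with all spots in the fit. Loess within arrays followed, with control and outlier spots at weight 0. Replicate spots were averaged by probe. Tested probes had at least 3 values and, in one of the channels, at least 3 arrays on which the software called them well above background. The mean log2 ratio was tested against 0 (lmFit with an intercept, eBayes, two-sided) with limma 3.58.1 in R 4.3.3, Benjamini-Hochberg adjusted over all 24104 tested probes, threshold 0.05. The ratio is already the paired difference. Signals are channel values after loess and Aquantile scaling, in arbitrary units, and are not compared between probes. The number of arrays limits the precision. The steps were tested on simulated data.

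Members and lists were chosen with earlier results of these data known. Named probes are the 5 largest rises and falls of each role group, genes with probes in both directions, and fixed core genes. Others are given to complete a family. Of the 121 probes 83, from 51 genes, were matched by accession to RefSeq (GRCm38.p6), and older names were updated through it. Probes of other genes were joined by accession, else by array name or synonym.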

Additional observations from a re-analysis of the deposited data

Results flagged for a closer look

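In 84 sets of 4 values, each the 4 arrays of 1 probe, 1 array was compared with its nearest neighbour relative to the whole range, and 7 sets had an array far from the others. Chance alone gives about 1 in 20. The sets hold log2 ratios and log2 levels and can share a gene, so they are not independent. The 7 were not tested against that share. At Snrpd3 the IL-18 level on replicate 1 was far below the rest at both brighter probes. At the brightest probe it was 12.78 on the log2 scale, against 14.40 to 14.48 on the other arrays, and at the next 10.18, against 12.04 to 12.31. The unstimulated level of these probes was not set apart in this way.

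Among log2 ratios, replicate 4 of Hnrpl read −0.21, against −0.61 to −0.57 on the other arrays. Replicate 4 of Sf3b2 read −0.76, against −0.30 to −0.28. Replicate 1 of Snrpe read 0.11, against 0.42 to 0.47, and replicate 1 of the dimmer Snrpb2 probe read 0.045, against 0.16 to 0.18. Replicate 3 of the brightest Sfrs2 probe read 0.13, against 0.05 to 0.06.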

How the results depend on the processing

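Of the alternatives tried, median centring in place of loess changed the most. It gave 98 higher and 7 lower splicing factor probes and a median of 0.76. Over all probes it gave 16746 higher and 1421 lower, so that 92.2% of calls were higher, against 50.2% with loess, and 93.3% against 50.8% among the splicing factors. Named probes below 0 with loess that turned above 0 under it, or passed there, read Hnrpc 0.54, Hnrpdl 0.47, Hnrpf 0.42, Hnrpk 0.33, Hnrpl 0.21, Hnrpu 1.01, Sf3a1 0.60, Sf3a3 0.83, Sf3b1 0.42, Sf3b2 0.50, Sf3b3 0.33, Sfrs1 0.69, Sfrs11 0.22, Sfrs12 0.16, Sfrs4 0.053, Sfrs5 0.79, Sfrs6 0.64, Sfrs9 0.60, Snrp70 0.82, Snrpa 0.96 and Snrpf 0.76. The brighter Hnrpf probe turned to −0.047 with the scanner software's log ratio and with the deposited series table's ratio. Counting the brightest probe per gene gave 20 higher and 14 lower of 55, or 36.4% and 25.5%, against 26.3% and 20.7% of all genes. Within slide 2 alone, replicates 3 and 4, 25 were higher and 15 lower, with a median of 0.043, and over all probes 2261 higher and 3273 lower, with 40.9% of calls higher. Within slide 1 alone 30 were higher and 38 lower, with a median of −0.046. Leaving out each replicate gave 24 to 33 higher and 24 to 37 lower among the splicing factors, with medians of −0.0087 to 0.026, and 3533 to 6217 higher and 4110 to 5989 lower over all probes. Of the 63 calls, 16 were lost without at least 1 array, 15 of them without replicate 2. With the normexp fit over all spots, an alternative added after the data were seen, 32 splicing factor probes were higher and 25 lower, and 4358 and 3869 over all probes. Each ratio already holds the pairing of both channels of its array, and the arrays form 1 group with no second group to pair against. With slide as a random block, 32 splicing factor probes were higher and 33 lower. The absence of a dye swap limits every direction, and signal over background limits the 8 untested probes.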
